A study of Bos taurus with 20 samples.

Results

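The 100 most abundant nuclear genes of whole bovine conceptuses were described across shape and treatment. They were chosen by their mean CPM (a gene's count scaled to a library total of 1000000) over the 19 libraries with more than 1000000 counts. Genes of the mitochondrial genome and of the X chromosome, genes with exons of 200 nucleotides or less in sum, and genes in 1 interval of chromosome 8 and 2 of chromosome 29 could not be chosen. This left 22809 of the 27607 genes in the files, so the members are 100 of 22809. The ranking used the same counts that are described here, so the members' levels and their share of the library are descriptions without a test. The differences between groups were not used directly to choose members and were tested. A gene near the lower edge can still be a member only because it is high in some libraries. The direction of such a gene is partly set by the choice.

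Each library came from total RNA of 1 whole conceptus, depleted of ribosomal RNA and read in pairs of 150 nucleotides. Embryos made by fertilisation in vitro were given recombinant bovine interleukin 6 (IL6) at 100 ng/ml, or its carrier alone, on day 5 after fertilisation, and the culture ended on day 7.5 with the harvest of blastocysts for transfer into recipients. The conceptuses recovered were ovoid or tubular, and the 4 groups were ovoid control (6 conceptuses, 3 of them female), ovoid IL6 (6, 4 female), tubular control (4, 1 female) and tubular IL6 (4, 2 female). Their age at recovery is not given in the sources used here. Titles carry a code of unstated meaning. Codes c201, c5036 and c8086 hold controls only, and c6186 and c9007 hold IL6 conceptuses only. An effect of IL6 and a difference between title codes thus cannot be told apart. Among controls, c201 holds 4 ovoid conceptuses, c8086 2 tubular ones and c5036 2 of each shape. A shape difference in controls is thus largely tied to title code as well. Both IL6 codes hold both shapes.

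A cattle conceptus grows from a sphere through an ovoid and a tubular form to a filament before it implants, and most of its mass in this phase is trophectoderm, with an inner lining of extraembryonic endoderm and a small embryonic disc. IL6 is a cytokine that signals through gp130 and STAT3, and in cattle embryos it is known for acting on the inner cell mass. The most abundant transcripts of a depleted total RNA library are few, take a large part of the reads and so set how much reading is left for other genes. In whole conceptuses, fewer cells of a type and less RNA per cell cannot be told apart.

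The files give Ensembl identifiers and positions on the assembly ARS-UCD1.2 but do not pair them with names. Of the 27607 identifiers, 0 matched the RefSeq gene table at hand, so members are given by identifier and rank and no role is stated for them. For the same reason the label "conceptus" was not checked against marker genes. Sequences of the members were not used here.

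Library totals ran from 2298491 to 13940103 counts in 19 libraries and reached 329666 in ovoid control replicate 3. Ovoid control replicate 3, ovoid IL6 replicate 1 and tubular IL6 replicate 1 are called the 3 libraries that stand apart, after how often members were lowest or highest in them, and counts are given with and without them. In ovoid control replicate 3, 37 members were among that library's own 100 most abundant eligible genes, against 61 to 91 in the other libraries, and 56 members were lower and 13 higher than in all 19 others. Ovoid IL6 replicate 1 was the lowest of the 19 libraries for 24 members and the highest for 24. Tubular IL6 replicate 1 was the lowest for 41 members and the highest for 9. Each of the remaining 17 libraries was the lowest or highest for at most 17 members. By another measure the order was different: 35 members were over 2-fold from their median in tubular IL6 replicate 1, 25 in ovoid IL6 replicate 2, 24 in ovoid IL6 replicate 1, 16 in ovoid IL6 replicate 3 and 0 to 7 in the other 15 libraries. Ovoid IL6 replicates 2 and 3, which stood out on this measure only, were left out singly. All 4 of these IL6 libraries carry title code c6186.

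The members held 18.7% of all counts on average over the 19 libraries. The first member alone held 2.07%, the first 10 together 7.10%, the first 25 10.8% and the first 50 14.3%. Thus 11.1% of the members' counts fell on 1 gene and 38% on 10 genes. At the lower edge the levels were continuous. ENSBTAG00000005726, ENSBTAG00000005012 and ENSBTAG00000021499, the last 3 members, had mean levels of 762, 756 and 756 CPM, and ENSBTAG00000012927, ENSBTAG00000001821 and ENSBTAG00000025441, the next 3 genes, had 754, 749 and 741 CPM. A total of 13 genes outside the choice had levels above rank 100, namely 10 mitochondrial genes with 2.16% of counts, 2 genes of the X chromosome with 0.188% and 1 gene in an interval of chromosome 29 with 0.135%.

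By gene structure the members fell into 5 classes. The first class is 2 single-block genes (all exons form 1 unbroken stretch) that lie 8189 nucleotides apart on the same strand of the unplaced scaffold NKLS02002005.1, and they held 2.53% of counts. Another 6 are single-block genes of 299 to 333 nucleotides, 4 on chromosome 10 and 1 each on chromosomes 8 and 23, with 0.769% of counts. The other 92 have several exon blocks. Of these, 12 with up to 1500 nucleotides of exon held 1.13%, 56 with more than 1500 and up to 5000 nucleotides held 8.84%, and 24 with over 5000 nucleotides held 5.41%. The members' median exon length was 2792 nucleotides and their median span on the genome 13582, against 2428 and 20551 over the 13266 eligible genes with a mean of at least 1 CPM. Within 100 kb of each other lay 8 pairs of members, among them ranks 7 and 8 on chromosome 5. Exons of 9 members (ranks 14, 26, 36, 39, 44, 49, 54, 62 and 97) overlap those of another annotated gene, and since reads were counted without strand those levels are uncertain.

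CPM favours long genes, so levels of different genes were compared per kilobase of exon. On that scale ENSBTAG00000052369 was still the highest, at 9597 CPM per kilobase, and the next 4 were short single-block genes, led by ENSBTAG00000049916 (rank 27) at 5767 CPM per kilobase. ENSBTAG00000004555, the second by CPM, had 899 CPM per kilobase, and the members' median was 495 CPM per kilobase. A choice of 100 genes by CPM per kilobase shared 50 genes with the members.

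The 100 members together took a similar share of counts in all groups. The share was 18.4% ± 1.09 (SD, n = 6) in ovoid controls, 18.9% ± 1.14 (SD, n = 6) in ovoid IL6, 18.5% ± 0.287 (SD, n = 4) in tubular controls and 18.5% ± 1.70 (SD, n = 4) in tubular IL6 conceptuses. Without the shallow library, ovoid controls stood at 18.7% ± 0.973 (SD, n = 5). Single ovoid controls ran from 17.1% to 19.6% with a median of 18.5%, and ovoid IL6 conceptuses from 17.9% to 20.9% with a median of 18.5%. Tubular controls measured 18.3%, 18.9%, 18.6% and 18.2%, and tubular IL6 conceptuses 20.9%, 18.5%, 17.2% and 17.4%. The groups overlapped throughout, and each difference between group means was below the largest SD of the groups. By title code, the 6 conceptuses of c6186 had 19.4% ± 1.27 (SD, n = 6) and the 4 of c9007 17.7% ± 0.509 (SD, n = 4), although both codes hold IL6 conceptuses. The share of the first 10 members was more variable, from 3.0% in ovoid control replicate 3 to 11.46% in tubular IL6 replicate 1.

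**Figure D1:**
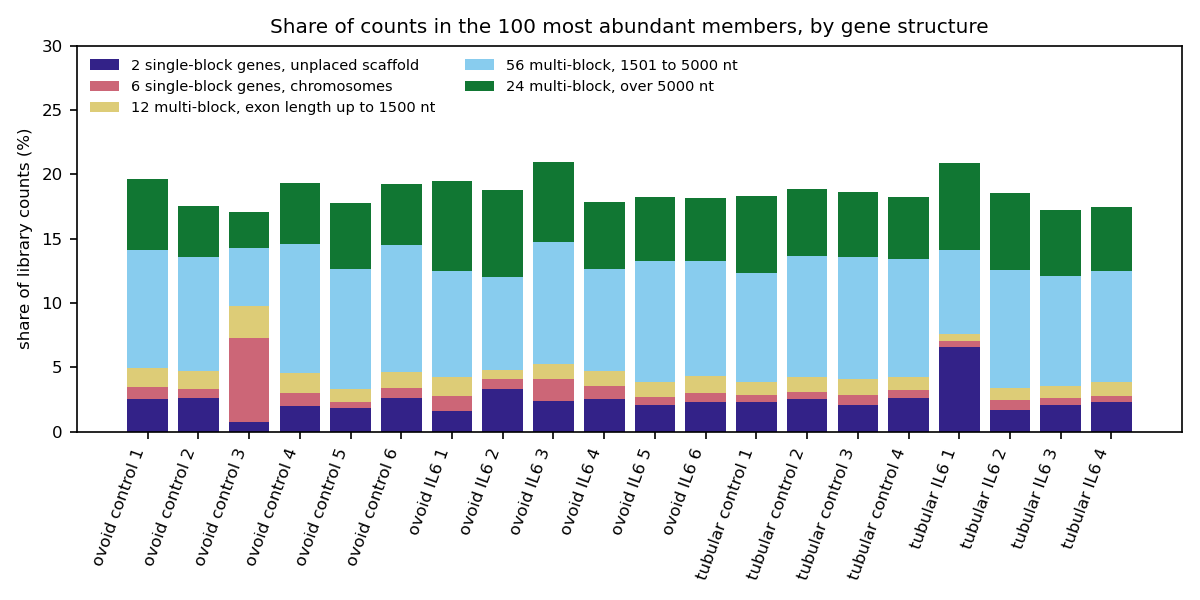
Share of each library's counts in the members (y axis, percent) for the 20 conceptuses (x axis), stacked by gene structure. All bars end between 17.1% and 20.9%, but in ovoid control replicate 3 the 6 short single-block genes take 6.52% and in tubular IL6 replicate 1 the 2 unplaced-scaffold genes take 6.60%.

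The 6 short single-block genes did not scale with the depth of the library. Their summed count ran from 21487 in ovoid control replicate 3, the shallowest library, to 76891 in ovoid control replicate 1, a range of 3.58-fold, while library totals spanned 42.3-fold. Among the 19 libraries the range was 3.34-fold against 6.06-fold for the totals. Their share of counts was 6.52% in the shallowest library, 1.72% in the next, ovoid IL6 replicate 3, and 0.431% in the deepest, ovoid control replicate 5. Tubular IL6 replicate 1, the fourth shallowest at 4845404 counts, lies off this order with 0.475%. Counts were made after removal of duplicate reads, and the part of that step in the levels of short, heavily covered genes was not tested. The 56 members of middle exon length spanned 86.8-fold in count over the same 20 libraries.

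In the classes with several exon blocks, the counts of the 12 short genes divided by those of the 24 long ones moved with library and group. The ratio had a median of 0.296 in ovoid controls (0.197 to 0.894), of 0.217 in ovoid IL6 conceptuses (0.0971 to 0.268), and measured 0.168, 0.217, 0.243 and 0.216 in tubular controls. In tubular IL6 conceptuses it measured 0.0770, 0.158, 0.189 and 0.209. The lowest values were those of tubular IL6 replicate 1 and ovoid IL6 replicate 2, and the highest was that of the shallow library. The 2 treatments overlapped in both shapes. Fold changes are therefore also given by class.

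The levels of the 10 highest members differed in how steady they were. ENSBTAG00000052369 (rank 1, scaffold NKLS02002005.1, 77605 to 79758) averaged 20672 ± 9195 CPM (SD, n = 19). It ran from 5955 to 22350 CPM in ovoid controls (median 18193) and from 13892 to 27904 CPM in ovoid IL6 (median 18628). Tubular controls measured 17411, 19943, 17504 and 22130 CPM and tubular IL6 conceptuses 55985, 13231, 16187 and 19424 CPM. Tubular IL6 replicate 1 was thus over 2-fold above every other library, and the groups overlapped. Its neighbour ENSBTAG00000051730 (rank 6, same scaffold, 67957 to 69416) was also highest in that library, at 10039 CPM, against 3418, 4589 and 3740 CPM in the other tubular IL6 conceptuses.

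ENSBTAG00000004555 (rank 2, chromosome 2, 26888630 to 27029783, 78 exon blocks) ranged from 6087 CPM to 11438 CPM in ovoid controls without the shallow library, which had 185 CPM. Ovoid IL6 conceptuses ran from 2357 to 29660 CPM (median 9467). Tubular controls measured 10908, 11951, 13221 and 8505 CPM and tubular IL6 conceptuses 28494, 17245, 10648 and 8999 CPM. Ovoid IL6 replicates 2 and 3 and tubular IL6 replicate 1, all of title code c6186, were the 3 highest libraries, and another of that code, ovoid IL6 replicate 1, was the lowest of the 19. The treatments overlapped in both shapes.

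ENSBTAG00000013468 (rank 3, chromosome 29, 40815654 to 40907522) averaged 7473 ± 3040 CPM (SD, n = 19) and ENSBTAG00000026199 (rank 9, chromosome 25, 38799230 to 38802646) 3805 ± 1244 CPM (SD, n = 19). The steadier members of the first 10 were ENSBTAG00000000836 (rank 7, chromosome 5, 27039437 to 27047690) at 4633 ± 851 CPM (SD, n = 19) and ENSBTAG00000001517 (rank 8, chromosome 5, 26998530 to 27002595) at 3835 ± 789 CPM (SD, n = 19). These neighbours on opposite strands were both lowest in tubular IL6 replicate 1, at 2108 and 1980 CPM. In the shallow library they fell far below that, to 188 and 170 CPM. ENSBTAG00000014534 (rank 10, chromosome 9, 13011231 to 13020524) averaged 3702 ± 991 CPM (SD, n = 19), with the same library again lowest at 1365 CPM.

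**Figure D2:**
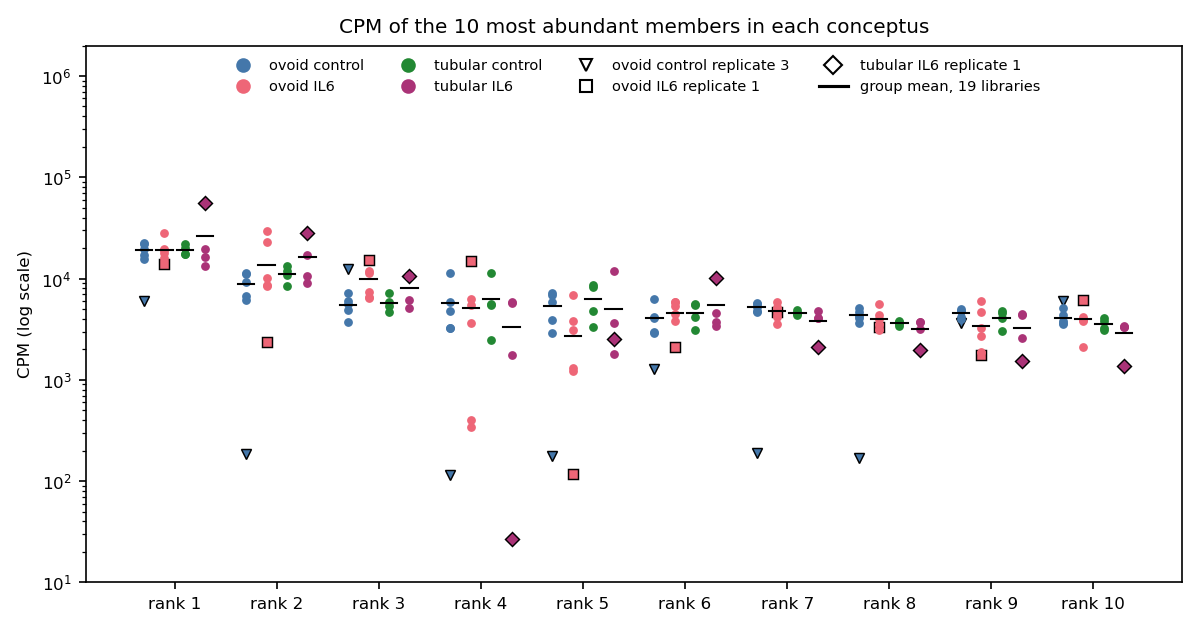
CPM on a log axis (y) of the 10 members with the highest mean (x, in rank order) in each of the 20 conceptuses, coloured by group. Black bars are group means over the 19 deeper libraries, and outlined triangles, squares and diamonds mark the 3 libraries that stand apart. Ranks 7 and 8 lie close together outside those libraries, while rank 4 runs from 27.0 to 14742 CPM.

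The spread of the members over the 19 libraries was moderate. Their coefficient of variation (CV, the SD over the mean) had a median of 0.265, against 0.317 over the 13266 eligible genes with at least 1 CPM. Of the members, 10 exceeded a CV of 0.5 (10%, against 22.99% of those genes) and 21 were at or below 0.2 (21%, against 18.4%). Without the 3 libraries that stand apart the members' median CV was 0.221, 6 exceeded 0.5 and 39 were at or below 0.2. Those libraries were picked by how often members were lowest or highest in them. The lower spread without them is thus partly set by that choice, and it has no counterpart here over the 13266 genes. The steadiest was ENSBTAG00000006045 (rank 41, chromosome 19, 51034066 to 51044560), with 1142 to 1427 CPM in all 19 libraries and a CV of 0.0697. It was followed by ENSBTAG00000015000 (rank 78), ENSBTAG00000013315 (rank 82), ENSBTAG00000012881 (rank 35) and ENSBTAG00000001601 (rank 24), with CVs of 0.119, 0.127, 0.142 and 0.144.

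The 5 most variable members were low in the same libraries. They are ENSBTAG00000018160 (rank 83, chromosome 24), ENSBTAG00000012849 (rank 64, chromosome 12), ENSBTAG00000008300 (rank 4, chromosome 2), ENSBTAG00000017122 (rank 95, chromosome 2) and ENSBTAG00000011412 (rank 76, chromosome 4), with CVs of 0.945, 0.849, 0.756, 0.668 and 0.664. Each has over 5000 nucleotides of exon and at least 33 exon blocks. In all 5, the 3 lowest of the 19 libraries were ovoid IL6 replicates 2 and 3 and tubular IL6 replicate 1, all of title code c6186. In all 5, the 3 highest were ovoid IL6 replicate 1, also of c6186, ovoid control replicate 1 and tubular control replicate 1. A total of 8 members had those same 3 lowest libraries.

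ENSBTAG00000008300 (103361566 to 103431472 on chromosome 2) shows the pattern at the highest level. It measured 27.0 CPM in tubular IL6 replicate 1, 346 and 397 CPM in ovoid IL6 replicates 3 and 2, and 14742 CPM in ovoid IL6 replicate 1. Its median over the 19 libraries was 5460 CPM. Tubular controls measured 11342, 5613, 2499 and 5483 CPM, and the other tubular IL6 conceptuses 1771, 5782 and 5845 CPM. The same 545-fold range thus arose within 1 title code and within the IL6 groups, and the conceptuses of c9007 lay near the controls.

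Another set was low in ovoid IL6 replicate 1 and in the shallow library, ovoid control replicate 3. In the former, 5 members stood at less than an 8th of their median over the 19 libraries, namely ranks 5, 12, 15, 31 and 61. ENSBTAG00000018122 (rank 5, chromosome 13, 74004343 to 74092083) had 117 CPM there and 176 CPM in the shallow library, against 1216 CPM in the next lowest and 11864 CPM in the highest, tubular IL6 replicate 2. ENSBTAG00000052794 (rank 61, chromosome 29) had 38.2 CPM in ovoid IL6 replicate 1 and 30.3 CPM in the shallow library, against 409 CPM in the next lowest. At 329666 counts in total, such a level in the shallow library rests on few reads. For rank 5 the ovoid controls without the shallow library lay between 2931 and 7127 CPM, and the ovoid IL6 conceptuses other than replicate 1 between 1216 and 6851 CPM, so the groups overlapped without either library. Markers of cell types were not used here, and the part of cell composition in these patterns was not tested.

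**Figure D3:**
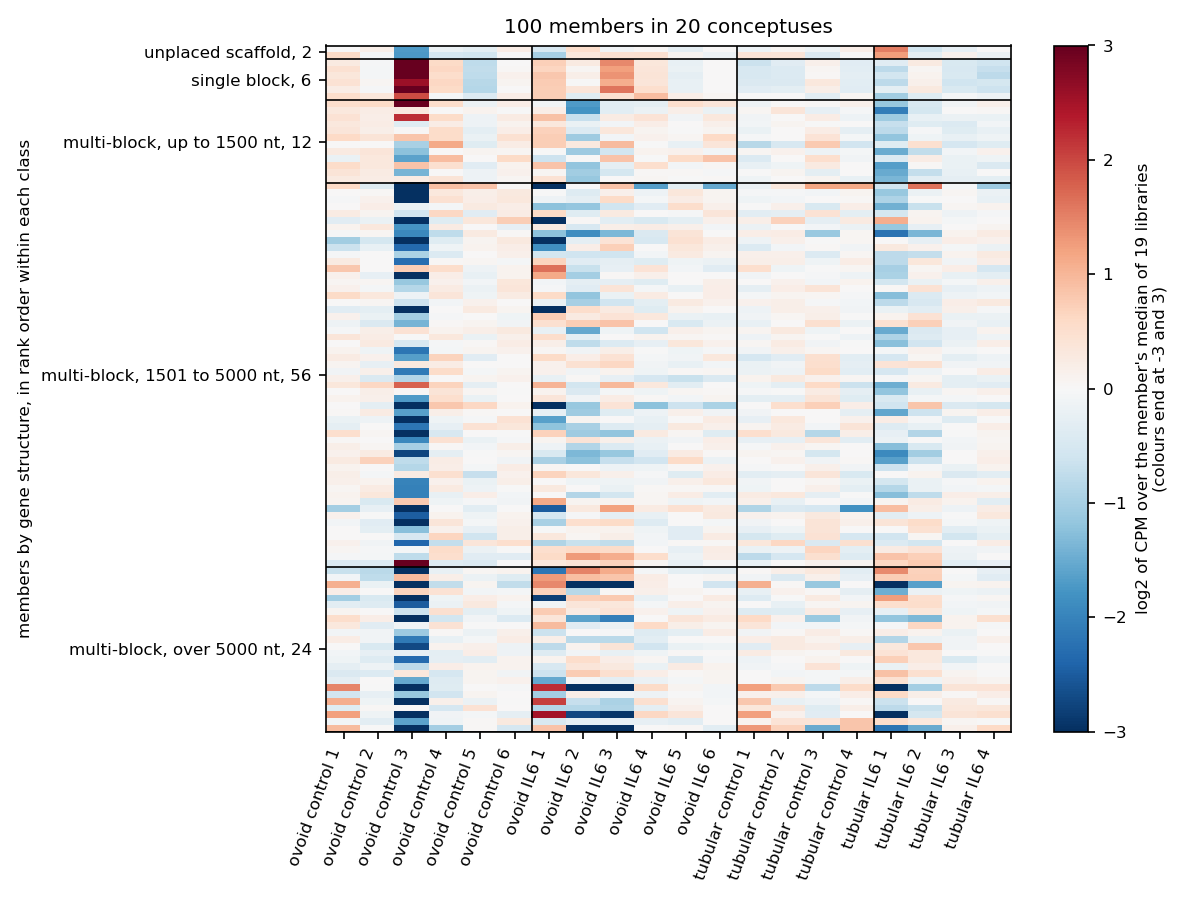
Log2 of each member's CPM over its median of the 19 deeper libraries (colour, ending at -3 and 3) for the 100 members (rows, by gene structure and then rank) in 20 conceptuses (columns, by group). Ovoid control replicate 3, ovoid IL6 replicate 1 and tubular IL6 replicate 1 carry most of the strong colours, and several long genes are low in ovoid IL6 replicates 2 and 3 and tubular IL6 replicate 1.

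Whether IL6 changed the members was asked first in ovoid conceptuses. All 100 members were among the 14875 genes tested with the quasi-likelihood test of edgeR. At a Benjamini-Hochberg adjusted p under 0.05, 0 members were called, with 0.0% of all genes called. DESeq2 called 0 members (0.578% of all genes), and at an unadjusted p under 0.05 edgeR had 2 members, with 8.34% of all genes. The last count was 11 when ovoid IL6 replicate 1 was left out (10.1%), 1 when replicate 2 of that group was (6.28%), and 12 without the 3 libraries that stand apart (12.8%). Fold changes were positive for 61 members (51.7% of all genes) with a median log2 of 0.07, against 0.02 over all genes. This direction rested on 1 library. Without ovoid control replicate 3, 36 members were positive (49.2% of all genes) with a median of -0.07, and without all 3 libraries that stand apart 31 were positive (49.1%) with a median of -0.18.

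ENSBTAG00000005012 (rank 99, chromosome 12, 29796159 to 29819628) and ENSBTAG00000007662 (rank 32, chromosome 11) had the smallest p toward higher values. The first ran from 559 to 1507 CPM in ovoid IL6 (median 899) and from 367 to 874 CPM in ovoid controls (median 541), with a log2 change of 0.81 ± 0.32 (SE, edgeR adjusted p = 0.501). Its 2 highest conceptuses were ovoid IL6 replicates 2 and 3. Without title code c6186 its log2 fold change was -0.02, so the groups overlapped and the value rests on that code. Its mean of 756 CPM lies at the lower edge of the choice, so its high IL6 libraries also helped to make it a member. For the second the log2 fold change was 0.48 ± 0.24 (SE, edgeR adjusted p = 0.624), 0.31 without the shallow library and -0.03 without c6186. Toward lower values, ENSBTAG00000011184 (rank 38, chromosome 29, 40477517 to 40480266) ran from 422 to 1931 CPM with IL6 (median 1197) and from 1210 to 12121 CPM in controls (median 1983). Its log2 fold change was -1.43 ± 0.46 (SE, edgeR adjusted p = 0.398) and -0.56 ± 0.30 (SE, edgeR adjusted p = 0.551) without the shallow library, which holds its highest value. ENSBTAG00000014731 (rank 34, chromosome 5) stood at -0.49 ± 0.27 (SE, edgeR adjusted p = 0.669), and at -0.0472 without c6186.

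By structure, 21 of the 24 long members had positive fold changes with IL6 in ovoid conceptuses (median log2 0.27), 4 of the 12 short members with several blocks (median -0.18) and 0 of the 6 short single-block genes (median -0.66). Over all tested genes of the same classes, 62.1% of long genes were positive (median 0.15), 41.1% of short genes with several blocks (median -0.07) and 61.1% of single-block genes (median 0.12). The 6 single-block members thus lay on the other side of 0 from single-block genes at large. Without ovoid control replicate 3 the 6 single-block genes were all positive (median 0.32) and 13 of the long members were. The order of the classes is thus partly set by the shallow library.

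In tubular conceptuses, 0 members were called between IL6 and control (0.0% of all genes by edgeR, and 0 members by DESeq2), and 0 had an unadjusted p under 0.05, against 2.51% of all genes. The last count was at most 4 with single conceptuses left out, reached without ovoid control replicate 3 (5.08%), and was 0 in 15 of the 20 cases. Fold changes were positive for 24 of 100 members (50.2% of all genes), with a median log2 of -0.22 against 0.00 over all genes. Without tubular IL6 replicate 1, 17 were positive, and without all 3 libraries that stand apart 12 (47.8% of all genes), with a median of -0.17. Each conceptus left out in turn gave 17 to 35 positive members. The 12 short members with several blocks were all negative (median -0.49) and the 24 long ones had a median of -0.01 with 11 positive. Over all tested genes the short genes had a median of -0.18 and the long ones of 0.18, so the members of both classes lay below their class.

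In CPM, all 4 tubular IL6 conceptuses were below all 4 tubular controls for 5 members (0.847% of all tested genes) and above them for 1 member (3.86%). The 5 lower members were ranks 26, 50, 52, 65 and 97. The gaps between the groups were narrow, such as 851 to 859 CPM in rank 52 and 771 to 812 CPM in rank 65. ENSBTAG00000015285 (rank 97, chromosome 3, 101232560 to 101235265) measured 310, 638, 659 and 648 CPM with IL6 and 729, 799, 847 and 682 CPM in controls, with a log2 change of -0.55 ± 0.29 (SE, edgeR adjusted p = 1.0). ENSBTAG00000014731 (rank 34, chromosome 5, 103870384 to 103874824) measured 566, 1183, 1359 and 1719 CPM with IL6 and 1709, 1952, 1465 and 1604 CPM in controls, which overlap (log2 fold change -0.60 ± 0.33, SE, edgeR adjusted p = 1.0). Without c6186 these 2 values were -0.33 and -0.20.

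The member above its controls was ENSBTAG00000001788 (rank 88, chromosome 16, 54008203 to 54043523). It measured 1534, 921, 735 and 947 CPM in tubular IL6 conceptuses and 434, 605, 570 and 230 CPM in tubular controls, with a log2 change of 1.13 ± 0.66 (SE, edgeR adjusted p = 1.0). Among ovoid conceptuses 5 of the 6 IL6 libraries, at 957 to 1877 CPM, lay above all 6 controls, at 39.4 to 818 CPM, and ovoid IL6 replicate 1 lay at 145 CPM. Averaged over shapes its log2 fold change was 0.96 ± 0.44 (SE, edgeR adjusted p = 0.445), and 0.74 ± 0.23 (SE, edgeR adjusted p = 0.286) without the 3 libraries that stand apart. Within each shape, the conceptuses of both IL6 title codes were thus above all controls except that 1 library. Its controls averaged 674 CPM (ovoid, without the shallow library) and 460 CPM (tubular), below the 756 CPM of rank 100. It was thus a member through its IL6 conceptuses, and its direction is partly set by the choice. Without the 3 libraries that stand apart, it was the only member whose ovoid IL6 conceptuses were all above the ovoid controls (1.09% of all tested genes). On the same libraries ENSBTAG00000010347 (rank 19) was the only member whose ovoid IL6 conceptuses were all below them, at 1731 to 2030 against 2135 to 2660 CPM (0.437%). The libraries left out went the other way for rank 19, with ovoid IL6 replicate 1 at 3543 CPM and ovoid control replicate 3 at 458 CPM. Ranks 88 and 19 were also the only members whose tubular and ovoid IL6 conceptuses did not overlap without the 3 libraries, with rank 88 lower (0.639%) and rank 19 higher (1.45%) in tubular conceptuses. Libraries left out went against both. Rank 88 had 145 CPM in ovoid IL6 replicate 1, below all tubular IL6 conceptuses. Rank 19 had 1294 CPM in tubular IL6 replicate 1, below all ovoid IL6 conceptuses. ENSBTAG00000005012 (rank 99) had the next smallest p toward higher values in tubular conceptuses, with 1126 and 1015 CPM in the 2 conceptuses of c6186 and 549 and 618 CPM in those of c9007, against 361, 436, 857 and 475 CPM in controls (log2 fold change 0.60 ± 0.39, SE, edgeR adjusted p = 1.0, and 0.018 without c6186).

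**Figure D4:**
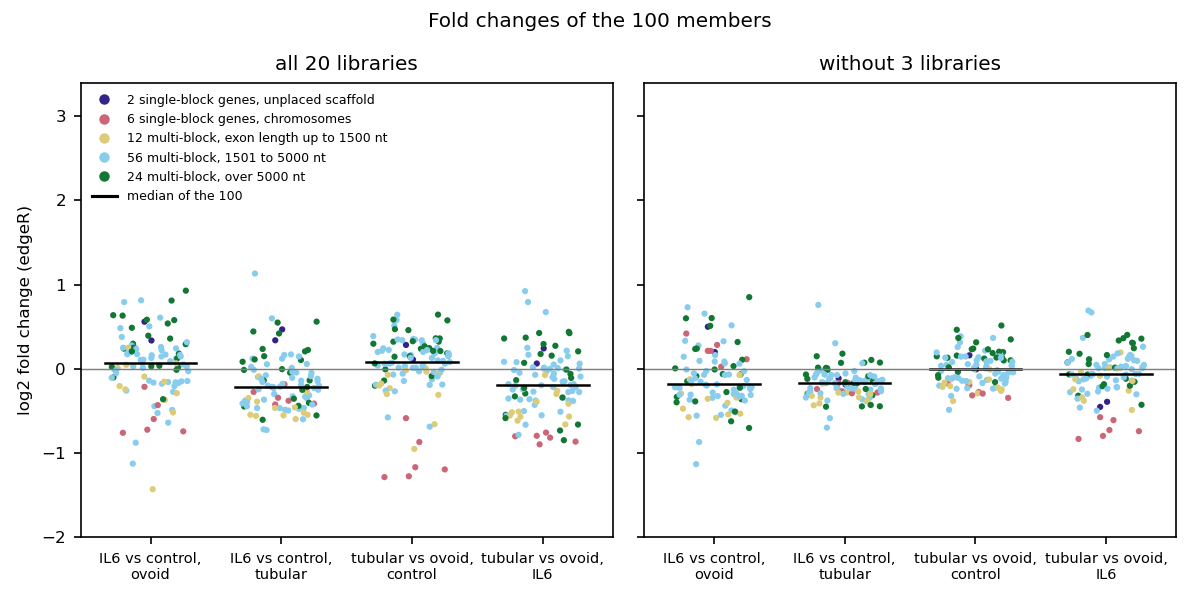
Log2 fold changes from edgeR (y axis) of the 100 members in 4 comparisons (x axis), with all 20 libraries on the left and without the 3 libraries that stand apart on the right. Points are members coloured by gene structure and black bars their medians, which for IL6 in ovoid conceptuses are 0.07 on the left and -0.18 on the right, and for IL6 in tubular conceptuses -0.22 and -0.17.

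Whether the IL6 effect differed between the shapes was tested with an interaction term, which called 0 members (0.0% of all genes by edgeR, and 0 members by DESeq2), with 0 members at an unadjusted p under 0.05 against 0.632% of all genes. The difference was positive for 17 of 100 members (45.5% of all genes), so the effect in tubular conceptuses was the lower one for the other 83. Without the 3 libraries that stand apart, 43 were positive (47.5% of all genes), so most of this imbalance rested on them. The smallest p toward higher values belonged to ENSBTAG00000011184 (rank 38) whose 2 log2 changes differed by 0.88 ± 0.71 (SE, edgeR adjusted p = 1.0) and to ENSBTAG00000021499 (rank 100) with 0.79 ± 0.84. The second reversed to -0.33 ± 0.35 without the shallow library, and the first was 0.11 ± 0.44. Toward lower values they belonged to ENSBTAG00000011559 (rank 53) at -0.44 ± 0.27 and ENSBTAG00000007662 (rank 32) at -0.46 ± 0.38 (SE).

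Averaged over shapes, IL6 and control conceptuses gave 0 called members with edgeR (0.0% of all genes) and 0 with DESeq2 (0.961%), with 5 members at an unadjusted p under 0.05 (10.7% of all genes). That count hung on single libraries: it was 22 without ovoid control replicate 3 (16.8%), 14 without the 3 that stand apart (13.2%) and 3 in 6 of the 20 cases with 1 conceptus left out. Positive fold changes numbered 42 (49.5% of all genes) with all libraries, 27 (48.1%) without ovoid control replicate 3 and 22 (48.3%) without the 3 that stand apart, with medians of -0.06, -0.16 and -0.18. Members were called only under 2 of the alternatives run. Without title code c9007, edgeR called 3 members (2.27% of all genes). These were ENSBTAG00000026199 (rank 9) at -0.97 ± 0.24 (SE, edgeR adjusted p = 0.0474), ENSBTAG00000003642 (rank 75) at -1.04 ± 0.26 (SE, edgeR adjusted p = 0.0488) and ENSBTAG00000005012 (rank 99) at 1.01 ± 0.25 (SE, edgeR adjusted p = 0.0497). That fit compares c6186 alone with the controls. Rank 9 had 1528 to 3258 CPM in the 6 conceptuses of c6186, below all 4 of c9007 at 4333 to 5971 CPM. Without ovoid control replicate 3, DESeq2 called 1 member (2.64% of all genes), ENSBTAG00000052794 (rank 61), at -1.14 ± 0.35 (SE, DESeq2 adjusted p = 0.0434). Over all libraries the smallest p belonged to ENSBTAG00000005012 at 0.71 ± 0.25 (SE, edgeR adjusted p = 0.332), ENSBTAG00000001788, ENSBTAG00000011184 at -0.99 ± 0.36 (SE, edgeR adjusted p = 0.335) and ENSBTAG00000014731 at -0.54 ± 0.21 (SE, edgeR adjusted p = 0.376). ENSBTAG00000011184 stood at -0.51 without ovoid control replicate 3, and ENSBTAG00000014731 at -0.12 without c6186.

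Between tubular and ovoid control conceptuses, 0 members were called (0.0% of all genes by edgeR, and 0 members by DESeq2), and 1 had an unadjusted p under 0.05 against 1.64% of all genes. That count was 8 without ovoid control replicate 5 (3.78%) and 0 in 2 of the 20 cases with 1 conceptus left out. Fold changes were positive for 63 members (50.8% of all genes), with a median log2 of 0.08, and for 45 (50.8%) without the shallow library, with a median of -0.02. ENSBTAG00000015438 (rank 85, chromosome 13, 37984719 to 38011411) had the smallest p. It measured 839, 1029, 1017 and 1377 CPM in tubular controls and 255 to 960 CPM in ovoid controls (median 726), with a log2 change of 0.64 ± 0.28 (SE, edgeR adjusted p = 1.0). Of the tubular controls 3 lay above all ovoid ones. ENSBTAG00000015240 (rank 66) followed at 0.47 ± 0.25 (SE, edgeR adjusted p = 1.0). With title code as a fixed term the 2 values were 0.028 and 0.055.

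The 2 lowest p toward lower values belonged to short single-block genes of chromosome 10, ENSBTAG00000055172 (rank 36, 42820456 to 42820754) and ENSBTAG00000050180 (rank 39, 42834493 to 42834792). The first measured 979, 1031, 1414 and 1090 CPM in tubular controls and 817 to 13232 CPM in ovoid controls (median 1625). Their log2 fold changes were -1.19 ± 0.60 and -1.28 ± 0.64 (SE, edgeR adjusted p = 1.0 for both). Without the shallow library they were -0.36 ± 0.31 and -0.33 ± 0.33 (SE), and the groups overlapped in either case. With title code as a fixed term they were 0.079 and 0.011.

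Between tubular and ovoid IL6 conceptuses, 0 members were called (0.0% of all genes by edgeR, and 0 members by DESeq2) and 4 had an unadjusted p under 0.05, all lower in tubular conceptuses, against 2.8% of all genes in either direction and 1.5% in that direction. The count was 0 without tubular IL6 replicate 1 (1.29%), 11 without ovoid control replicate 3 (4.79%) and 6 without the 3 libraries that stand apart (2.42%). Fold changes were positive for 30 members (46.4% of all genes), with a median log2 of -0.19, and for 45 (48.6%) without the 3 libraries that stand apart, with a median of -0.06. ENSBTAG00000011559 (rank 53, chromosome 11, 104255845 to 104259161) measured 615, 770, 754 and 948 CPM in tubular IL6 and 869 to 1235 CPM in ovoid IL6 conceptuses (median 1049), with a log2 change of -0.51 ± 0.20 (SE, edgeR adjusted p = 1.0). Of the tubular conceptuses 3 lay below all ovoid ones. ENSBTAG00000009757 (rank 37, chromosome 22) stood at -0.56 ± 0.22 (SE, edgeR adjusted p = 1.0), and at -0.28 without the 3 libraries that stand apart. Toward higher values, ENSBTAG00000016598 (rank 46, chromosome 21) stood at 0.29 ± 0.18 and ENSBTAG00000015438 (rank 85) at 0.44 ± 0.28 (SE, edgeR adjusted p = 1.0 for both). For rank 85 the tubular IL6 conceptuses measured 1121, 977, 804 and 773 CPM and the ovoid ones 570 to 778 CPM, so 3 of 4 again lay above all ovoid ones. Without c6186 the value of rank 85 was 0.017. With title code as a fixed term, ranks 53, 37, 46 and 85 stood at -0.53, -0.58, 0.30 and 0.44, close to the values above.

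All 6 short single-block genes had negative fold changes in both shape comparisons, with medians of -1.18 in controls and -0.81 with IL6. Without the 3 libraries that stand apart the medians were -0.28 and -0.73. With title code as a fixed term, ranks 36 and 39 among them stood at 0.079 and 0.011 in controls. Averaged over treatments, 0 members were called by shape (0.0% of all genes by edgeR, and 0 members by DESeq2) and 12 had an unadjusted p under 0.05 (4.32% of all genes), 9 of them lower in tubular conceptuses (2.68% of all genes). The count of 12 was 2 without ovoid IL6 replicate 1 (2.27%) and 17 without ovoid IL6 replicate 2 (6.16%). These 9 include all 6 single-block genes, where 117 of the 1335 tested single-block genes had such a p in either direction. Of the 6, 3 did without the 3 libraries that stand apart. They include ENSBTAG00000043250 (rank 74, chromosome 23, 25224255 to 25224585) at -0.69 ± 0.27 (SE, edgeR adjusted p = 0.914) and ENSBTAG00000055172 (rank 36) at -1.03 ± 0.41 (SE, edgeR adjusted p = 0.914). These stood at -0.38 and -0.54 without the 3 libraries, and at -0.31 and -0.29 with title code as a fixed term. The share of counts of the 6 single-block genes was highest in the 2 shallowest libraries, both ovoid. It was low in the deepest ones, as described above. The part of depth in this difference was not tested. Toward higher values, ENSBTAG00000015438 (rank 85) stood at 0.54 ± 0.20 and ENSBTAG00000016598 (rank 46) at 0.31 ± 0.13 (SE, edgeR adjusted p = 0.914 for both). With title code as a fixed term these 2 stood at 0.23 and 0.23, and without c6186 at 0.32 and 0.13. Without the 3 libraries that stand apart 8 members had an unadjusted p under 0.05 (3.92% of all genes).

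Fold changes between the 10 male and 10 female conceptuses were positive for 44 members (50% of all genes). At the adjusted threshold 0 members were called with edgeR (0.0538% of all genes) and 0 with DESeq2 (0.592%), and 1 had an unadjusted p under 0.05 against 6.88% of all genes. That count was 11 without ovoid IL6 replicate 1 (9.58%), 5 without the 3 libraries that stand apart (10.1%) and 0 in 5 of the 20 cases with 1 conceptus left out. The 2 unplaced-scaffold genes had the smallest p toward higher values in males. ENSBTAG00000052369 (rank 1) stood at 0.61 ± 0.27 (SE, edgeR adjusted p = 0.706) and ENSBTAG00000051730 (rank 6) at 0.53 ± 0.29 (SE, edgeR adjusted p = 0.781). Tubular IL6 replicate 1, where both were highest, is male and ovoid control replicate 3, where both were lowest, is female. Without the 3 libraries that stand apart the first stood at 0.38 ± 0.12 (SE, edgeR adjusted p = 0.313), while DESeq2 called it at 0.36 ± 0.10 (SE, DESeq2 adjusted p = 0.0391, with 1.2% of all genes called). Toward lower values, ENSBTAG00000055172 (rank 36) stood at -0.78 ± 0.40 and ENSBTAG00000011184 (rank 38) at -0.71 ± 0.38 (SE, edgeR adjusted p = 0.765 and 0.772). Without ovoid control replicate 3, a female conceptus in which both were highest, they stood at -0.24 and -0.22.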

How the data were processed

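Per the file headers, the authors counted fragments with featureCounts 2.0.1, ignoring strand and reads marked as duplicates, against Ensembl release 105 of ARS-UCD1.2, and deposited the unscaled counts of each gene. The alignment files were named as having duplicates removed. The submitters' processing notes also list HISAT2, SAMtools and Picard. Removing duplicates can limit counts of short, heavily covered genes. Of the 27607 genes, 2831 had no count.

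CPM is the count over the library total. One edgeR 4.0.16 quasi-likelihood model (robust, TMM factors, 4 group terms and sex, default filter, 14875 genes) gave all 8 contrasts. Adjusted p-values (Benjamini-Hochberg) cover all genes tested. SE is the fold change over the square root of F. Alternatives included DESeq2 1.42.0 and limma 3.58.1. R 4.3.3 and Python 3.11.15 were used. The edgeR test was run on simulated counts that held no title-code effect and no library that stands apart, so that check does not cover either.

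The labels give 1 conceptus per library and number no replicates. Replicate numbers follow deposit order and pair nothing. With title code as a random block in limma, the estimated correlation within a code, shared over genes, was 0.148. Conceptuses of one title code may be alike, and p-values of the IL6 contrasts are then too small. The shape contrasts that use controls share this limit in part, since only c5036 holds both shapes of control.

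The members, lists and alternatives were chosen with earlier results of these data known. Named members are the 10 highest, the 5 most and 5 least variable, 3 on each side of rank 100, and per contrast the 2 with the smallest p in each direction, since 0 passed. Others named were chosen after their values were seen, as were the 3 libraries called apart. The 14 gene lists and 8 marker lists need symbols and were not used here.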

Additional observations from a re-analysis of the deposited data

Results flagged for a closer look

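Within groups of 4 or 6 conceptuses, the gap between an extreme conceptus and its neighbour, over the group's range, was tested against Dixon's 95% limit for shares, a ratio and the named members. Of 156 groups of values, 24 had such a conceptus. Chance gives about 1 in 20 for independent values, a rate this count cannot be read against, since members share libraries and some were named for being the most variable. Of these, 15 were ovoid control replicate 3, 4 ovoid IL6 replicate 1, 4 tubular IL6 replicate 1 and 1 ovoid control replicate 1.

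Ovoid control replicate 3 stood far below the other ovoid controls in the share of the first 10 members, at 3.0% against 6.08% in the next. It stood above them in the share of the 6 short single-block genes, at 6.52% against 1.03%, and in the counts of short over long genes with several blocks, at 0.894 against 0.341. Single members were high there too. ENSBTAG00000055172 had 13232 CPM against 2080 in the next ovoid control, ENSBTAG00000050180 13356 against 1776, ENSBTAG00000011184 12121 against 2049, ENSBTAG00000021499 6115 against 718 and ENSBTAG00000043250 3194 against 1204. Others were low there. ENSBTAG00000000836 had 188 CPM against 4647, ENSBTAG00000001517 170 against 3636, ENSBTAG00000006045 276 against 1146, ENSBTAG00000013315 212 against 745, ENSBTAG00000015000 470 against 820, ENSBTAG00000007662 689 against 1238 and ENSBTAG00000012881 689 against 1293.

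Tubular IL6 replicate 1 stood above the other tubular IL6 conceptuses in the unplaced-scaffold genes, at 6.60% of counts against 2.32%, and in ENSBTAG00000052369, at 55985 CPM against 19424. It stood below them in ENSBTAG00000014534, at 1365 CPM against 3331, and in ENSBTAG00000015285, at 310 against 638. Ovoid IL6 replicate 1 was high in ENSBTAG00000018160, at 3690 CPM against 1015, in ENSBTAG00000012849, at 3360 against 1085, and in ENSBTAG00000011412, at 2986 against 999, and low in ENSBTAG00000015240, at 454 against 835. Ovoid control replicate 1 was high in ENSBTAG00000012849, at 2004 CPM against 729. The causes were not tested.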

How the results depend on the processing

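The count of called members was 0 under all alternatives in 6 of the 8 comparisons. It rose to 3 without title code c9007 and to 1 with DESeq2 without ovoid control replicate 3 for IL6 averaged over shapes, and to 1 with DESeq2 without the 3 libraries that stand apart for males against females, where leaving out single conceptuses gave 0. Choosing by CPM per kilobase kept 50 of the 100 genes, the median 93, all 20 libraries 97, mean log2 CPM 95 and TMM CPM 100. All 73 alternative differences in share moved by less than 1 SD, though 20 changed sign. Of 1132 alternative values of the 32 named fold changes, 15 changed sign. Without c6186 these were ENSBTAG00000005012 (-0.0194 in ovoid conceptuses, -0.0009 averaged), ENSBTAG00000007662 (-0.0265) and ENSBTAG00000016598 (-0.071, shape with IL6). With the title code as a fixed term they were ENSBTAG00000055172 (0.0787), ENSBTAG00000050180 (0.0114) and, for the interaction, ENSBTAG00000011184 (-0.37) and ENSBTAG00000021499 (-0.11). Without c201 they were ENSBTAG00000055172 (0.0533), ENSBTAG00000011184 (-0.22) and ENSBTAG00000021499 (-0.19). The interaction of ENSBTAG00000021499 ran from -0.33 to 0.9997 over single conceptuses left out, and was -0.33 without ovoid control replicate 3 (-0.34 with DESeq2) and -0.45 without the 3 libraries (-0.47 with DESeq2). The causes were not tested. No paired analysis was possible because the labels number no replicates. Members have many counts in the 19 deeper libraries, so counting error there is small beside the spread between conceptuses. This does not hold in ovoid control replicate 3, with 329666 counts in total. Members with low CPM there, such as ENSBTAG00000004014 at 6.07 CPM, rest on few reads.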
